A study of Homo sapiens with 2 samples.

Results

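Cathepsins and the vacuolar ATPase were examined in radiation-adapted MHH-ES-1 cells and in wild-type cells of the same established human Ewing sarcoma line, a tumour line of bone or soft tissue origin driven by an EWSR1-ETS fusion. The genes were taken by their platform symbol: every symbol made of CTS and 1 letter except CTSC, and every symbol starting with ATP6V or ATP6AP. This gave 36 genes on 50 probes, 14 cathepsins on 20 probes and 22 V-ATPase genes on 30 probes, of 20046 genes on 30113 probes that the annotation names by 1 symbol. Both lines were profiled on Illumina bead arrays as total RNA, with 1 array of radiation-adapted cells, whose short description carries 4 Gy, and 1 array of wild-type cells. The schedule of irradiation, the time of RNA extraction and whether the adapted line is 1 clone are not stated in the labels. No culture was replicated, so the differences below carry no p-value and hold for this pair of RNA samples.

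Cathepsins are proteases that mostly work in lysosomes, the acidic compartments where proteins taken up or delivered by autophagy are broken down. Most human cathepsins are cysteine proteases of the papain family; others use a serine or an aspartate in the active site. The acid they need is supplied by the V-ATPase, a rotary proton pump in which the cytosolic V1 sector hydrolyses ATP and turns a rotor in the membrane-bound V0 sector. Several of its subunits exist as paralogues, of which some are made in most cells and others mainly in kidney, neurons or osteoclasts. In tumours, secreted or surface-bound cathepsins are known for cleaving matrix proteins, and genes of both groups can be induced through the transcription factor TFEB, which binds CACGTG-containing sites in their promoters.

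The median bead signal over all probes was 142.4 on the radiation-adapted array and 140.3 on the wild-type array, with 37.4% and 34.3% of 47323 probes called detected, that is, with a detection p-value under 0.01 against the negative controls of their array. All 9 Ewing sarcoma markers on the array, among them EWSR1, FLI1, CD99 and NKX2-2, were detected on both arrays. Their levels were not all alike. NKX2-2, BCL11B and CAV1 were at least 2-fold higher in radiation-adapted cells, and STEAP1 and GLI1 were at least 2-fold lower. These are 55.6% of the 9, beside 22.6% of all 11352 detected named genes. Of 15 leukocyte and macrophage markers, 6 were detected in radiation-adapted cells and 6 in wild-type cells. CD68, LYZ, ITGB2, AIF1 and CD79A were detected on both arrays, CD14 in radiation-adapted cells only and CORO1A in wild-type cells only. The other markers, among them PTPRC, CSF1R, CD163 and TYROBP, were not well above background in either. The summed signal of all 15 markers, background included, was 3263.5 in radiation-adapted cells and 12902.3 in wild-type cells. Without the integrin gene ITGB2 it was 2621.8 in radiation-adapted and 2338.4 in wild-type cells. ITGB2 itself gave 641.7 in radiation-adapted cells and 10563.9 in wild-type cells. CD68 gave 681.6 in radiation-adapted cells and 249.8 in wild-type cells at its brighter probe, and its other probe went the other way, as given below. LYZ, AIF1, CORO1A and CD79A gave less signal in radiation-adapted cells than in wild-type cells. Such sums weigh each marker by the brightness of its probe, so single probes can decide them. Apart from these sums, signals of different probes are not compared with each other, because probes differ in how brightly they report.

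CTSB, CTSV and ATP6V1B1 were at least 2-fold higher in radiation-adapted cells than in wild-type cells, and CTSH and ATP6V1G2 were at least 2-fold lower. Of the 36 genes, 29 had a detected probe, 25 on both arrays and 4 on the radiation-adapted array only, and 24 of the 29 were not counted past 2-fold: 20 that were detected on both arrays lay within it, and the other 4 have only a bound or no fold, so that their distance from 2-fold is not known. The genes past 2-fold were 3 of 10 detected cathepsins (30%) and 2 of 19 detected V-ATPase genes (10.5%). These 5 genes are 17.2% of the 29, beside 22.6% of all 11352 detected named genes (12.4% past 2-fold upwards and 10.3% downwards), so the share over both families together was not above the background. Of the 7 cathepsins detected on both arrays, 6 had a log2 ratio above 0 (positive where radiation-adapted cells were higher, on background-corrected and quantile-normalized values), and the median was 0.51. Of the 18 V-ATPase genes detected on both arrays, 12 lay above 0 and 6 below, with a median of 0.09. Of all 9188 named genes detected on both arrays, 4447 lay above 0 and 4735 below, with a median of -0.02. CTSK, CTSO, CTSG and ATP6AP1L passed the detection rule through the radiation-adapted array alone, so they are left out of these counts and medians, and every list median below is likewise over genes detected on both arrays.

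**Figure D1:**
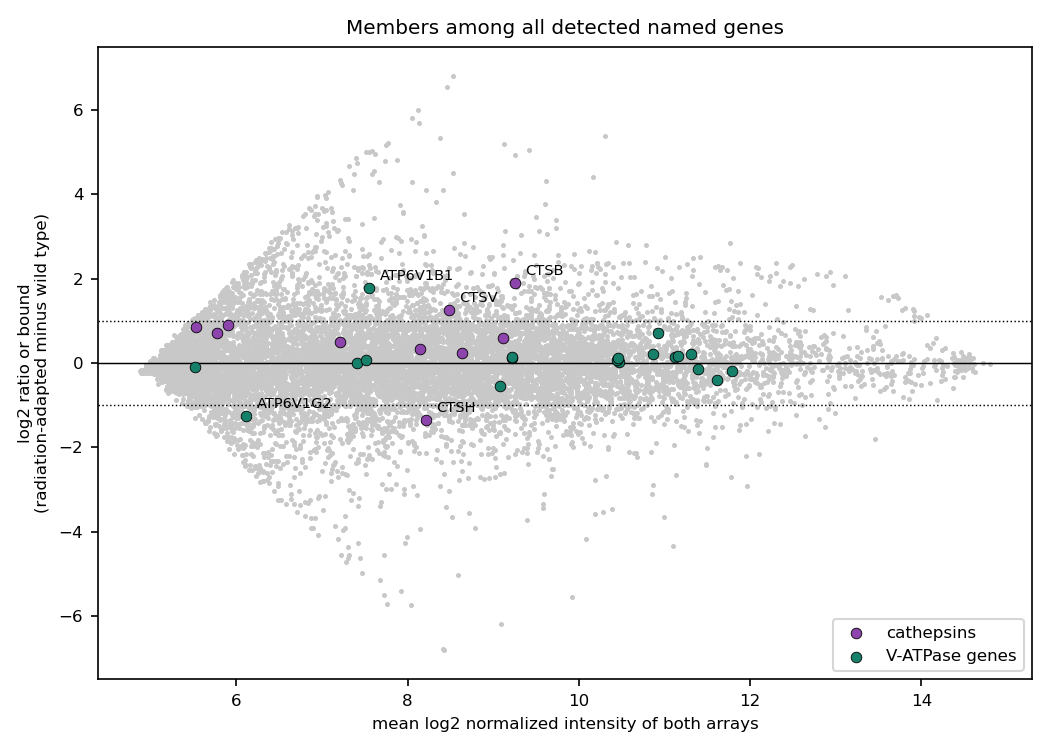
Log2 ratio, radiation-adapted over wild type (y axis), against mean log2 normalized intensity of both arrays (x axis) for the 11352 detected named genes (grey), with the 10 detected cathepsins (purple) and 19 detected V-ATPase genes (green); dotted lines mark 2-fold. The 5 labelled genes lie past 2-fold, and the other 24 are drawn between the dotted lines, 4 of them at a bound.

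The only spread these arrays offer lies between different probes of 1 gene. Its SD on the log2 ratio scale was 0.45, from 2269 genes that each had more than 1 probe detected in both lines, whereas the ratios of different genes had an SD of 0.90. The median difference between the probes of the 1883 genes with 2 such probes was 0.28. Neither value includes differences between cultures.

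CTSB, a cysteine protease that acts both as an endopeptidase and as a carboxydipeptidase, was the highest of all these genes. Its brighter probe (ILMN_2359742) gave a bead signal of 1335.7 in radiation-adapted cells and 396.5 in wild-type cells. Its dimmer probe (ILMN_1696360) gave 576.4 in radiation-adapted cells and 169.9 in wild-type cells, where its detection p-value was 0.0026. Both probes were thus higher in the radiation-adapted cells, by 3.72-fold at the brighter (log2 ratio 1.90) and 6.76-fold at the dimmer (2.76). The probes differed from each other by 0.86, which is less than either ratio. As with every gene here, more cells making the transcript and more transcript per cell cannot be told apart in bulk RNA. Its ratio was the 415th highest among the 11352 detected named genes. The nearest 20 detected genes on chromosome 8 had a median log2 ratio of 0.34, with 3 of them at least 2-fold higher.

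CTSV, a close paralogue of CTSL known from thymic epithelium and testis, was measured by 1 probe. It gave 710.4 in radiation-adapted cells and 318.1 in wild-type cells. CTSV was therefore 2.40-fold higher in the radiation-adapted cells (log2 ratio 1.26, or 0.95 without background correction), while its chromosome 9 neighbours had a median of 0.16. CTSL itself, a broadly made lysosomal endopeptidase, had signals of 837.5 in radiation-adapted and 527.7 in wild-type cells at its brightest probe, a log2 ratio of 0.59. Its other probes had 0.19 and a bound of 0.05, so the differences at CTSL ran from near 0 to little more than the SD of 0.45 between probes, and its neighbours, also on chromosome 9, had a median of 0.40. Whether the CTSV probe also binds CTSL transcripts was not tested.

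The promoter of CTSV is shown as 1 of the 4 genes past 2-fold whose promoter could be printed. It is given from 250 bases before to 50 bases after the annotated start (RefSeq, GRCh38.p14, chr9:97039093-97039392, minus strand, 5′ to 3′), with capitals for GGGCGG boxes and CCAAT boxes on either strand.
CTSV: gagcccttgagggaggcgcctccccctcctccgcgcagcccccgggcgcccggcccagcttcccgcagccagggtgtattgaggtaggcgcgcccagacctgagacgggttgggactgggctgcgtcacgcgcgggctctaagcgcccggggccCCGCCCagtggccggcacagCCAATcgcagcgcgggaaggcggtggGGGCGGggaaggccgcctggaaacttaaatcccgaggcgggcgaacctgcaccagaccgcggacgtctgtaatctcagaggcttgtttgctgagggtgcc
It held 2 GGGCGG boxes and 1 CCAAT box. It held neither CACGTG nor a TATAAA box nor the AP-1 motif, searched as TGANTCA on both strands. Promoters with the GGGCGG box made up 76.9% and promoters with a CCAAT box 43.9% of those of the 9102 detected genes in the promoter table. The TATAAA box was present for 8.45% of these genes, and the AP-1 motif for 6.79%.

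CTSH was the 1 cathepsin at least 2-fold lower. It encodes an aminopeptidase of the papain family. Its brighter probe (ILMN_2390853) gave 321.2 in radiation-adapted cells and 552.1 in wild-type cells. Its dimmer probe gave 147.9 in radiation-adapted cells, where it was not well above background (detection p-value 0.053), and 184.0 in wild-type cells. CTSH was 2.57-fold lower at the brighter probe (log2 ratio -1.36, or -0.98 without background correction), and the dimmer probe, which gives only a bound, was at least 1.93-fold lower. Both probes thus pointed the same way, opposite to the other 6 cathepsins detected on both arrays. The 20 nearest genes on chromosome 15 had a median of 0.02. Its promoter (chr15:78944997-78945296, minus strand) is set out in the same way.
CTSH: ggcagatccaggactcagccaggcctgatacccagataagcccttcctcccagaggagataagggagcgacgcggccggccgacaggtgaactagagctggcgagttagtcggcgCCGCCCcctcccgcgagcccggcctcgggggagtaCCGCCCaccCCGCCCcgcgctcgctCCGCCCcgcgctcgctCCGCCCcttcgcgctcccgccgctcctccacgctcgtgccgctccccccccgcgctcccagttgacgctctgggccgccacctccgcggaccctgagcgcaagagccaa
It held 5 GGGCGG boxes, all as CCGCCC on the strand shown, and none of the other motifs searched.

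CTSK and CTSO were detected in the radiation-adapted cells alone. CTSK, the collagen-degrading protease of osteoclasts, gave 216.3 in radiation-adapted cells and 150.8 in wild-type cells, where its detection p-value was 0.045. CTSO, a little-studied member of the family, gave 203.3 in radiation-adapted cells and 149.8 in wild-type cells (detection p-value 0.053). In such a case the wild-type level is not known, so it was set to the dimmest detected level on that array (log2 5.60) and the ratio is a lower bound. On that basis CTSK was at least 1.88-fold higher and CTSO at least 1.64-fold higher, both below the 2-fold line. As measured, with the dim wild-type value taken at face value, the folds were 2.31 for CTSK and 2.07 for CTSO. Over 8 alternatives in processing the log2 ratio or bound ran from 0.33 to 1.22 for CTSK and from 0.25 to 1.05 for CTSO. Most of these values are lower bounds, and a lower bound under 1 does not place a gene within 2-fold. The neighbours of CTSK on chromosome 1 had a median of 0.37 and those of CTSO on chromosome 4 a median of 0.06.

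CTSF, another lysosomal papain-like protease, gave 311.3 in radiation-adapted cells and 223.8 in wild-type cells, a ratio of 0.51 (log2), beside the SD of 0.45 between probes. CTSS, which processes the invariant chain in antigen-presenting cells, CTSW, made by natural killer and cytotoxic T cells, and CTSZ, a carboxypeptidase, were not well above background on either array. Their signals lay between 116.4 and 137.8 in radiation-adapted cells and between 122.1 and 133.6 in wild-type cells. Of the 10 cysteine cathepsin genes, 7 were thus detected, 2 at least 2-fold higher and 1 lower, while CTSL and CTSF lay within 2-fold and CTSK and CTSO have only a bound. Those past 2-fold are 42.9% of the 7, beside 22.6% of all 11352 detected named genes. With 7 genes this share is imprecise. The median log2 ratio of the 5 detected on both arrays was 0.59.

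Among the cathepsins with other active sites, 3 were detected. CTSA and CTSD lay within 2-fold, and CTSG has only a bound. CTSA, a serine carboxypeptidase that also stabilises 2 other lysosomal enzymes, beta-galactosidase (GLB1) and neuraminidase (NEU1), gave 469.7 in radiation-adapted cells and 338.0 in wild-type cells (log2 ratio 0.34). CTSD, the main aspartic protease of lysosomes, gave 583.7 in radiation-adapted cells and 444.7 in wild-type cells (log2 ratio 0.24). Both ratios are below the SD of 0.45 between probes. GLB1 and NEU1, named here after their values were seen, had log2 ratios of -1.12 (-1.37 at the other GLB1 probe) and -0.90, on the other side of 0 from CTSA.

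CTSG, a serine protease of neutrophil granules, gave 212.8 in radiation-adapted cells and 129.6 in wild-type cells, where its detection p-value was 0.48. It was at least 1.81-fold higher (3.61-fold as measured, with log2 ratios or bounds from 0.31 to 1.85 over 8 alternatives), while its neighbours on chromosome 14 had a median of -0.56. Of 7 detected leukocyte markers, 1 was at least 2-fold higher, CD68 (log2 ratio 1.78, and -2.07 at its other probe), and 4 were lower by 2-fold or more. The lower ones were ITGB2, LYZ, CORO1A (a bound) and CD79A (-1.36, and -0.11 at its other probe). The share past 2-fold was 71.4%, beside 22.6% of all 11352 detected named genes. Whether CTSG and these markers are related was not tested. CTSE, an aspartic protease best known from stomach, was not well above background at any of its 3 probes, where signals lay between 132.3 and 137.8 in radiation-adapted cells and between 122.3 and 148.0 in wild-type cells.

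**Figure D2:**
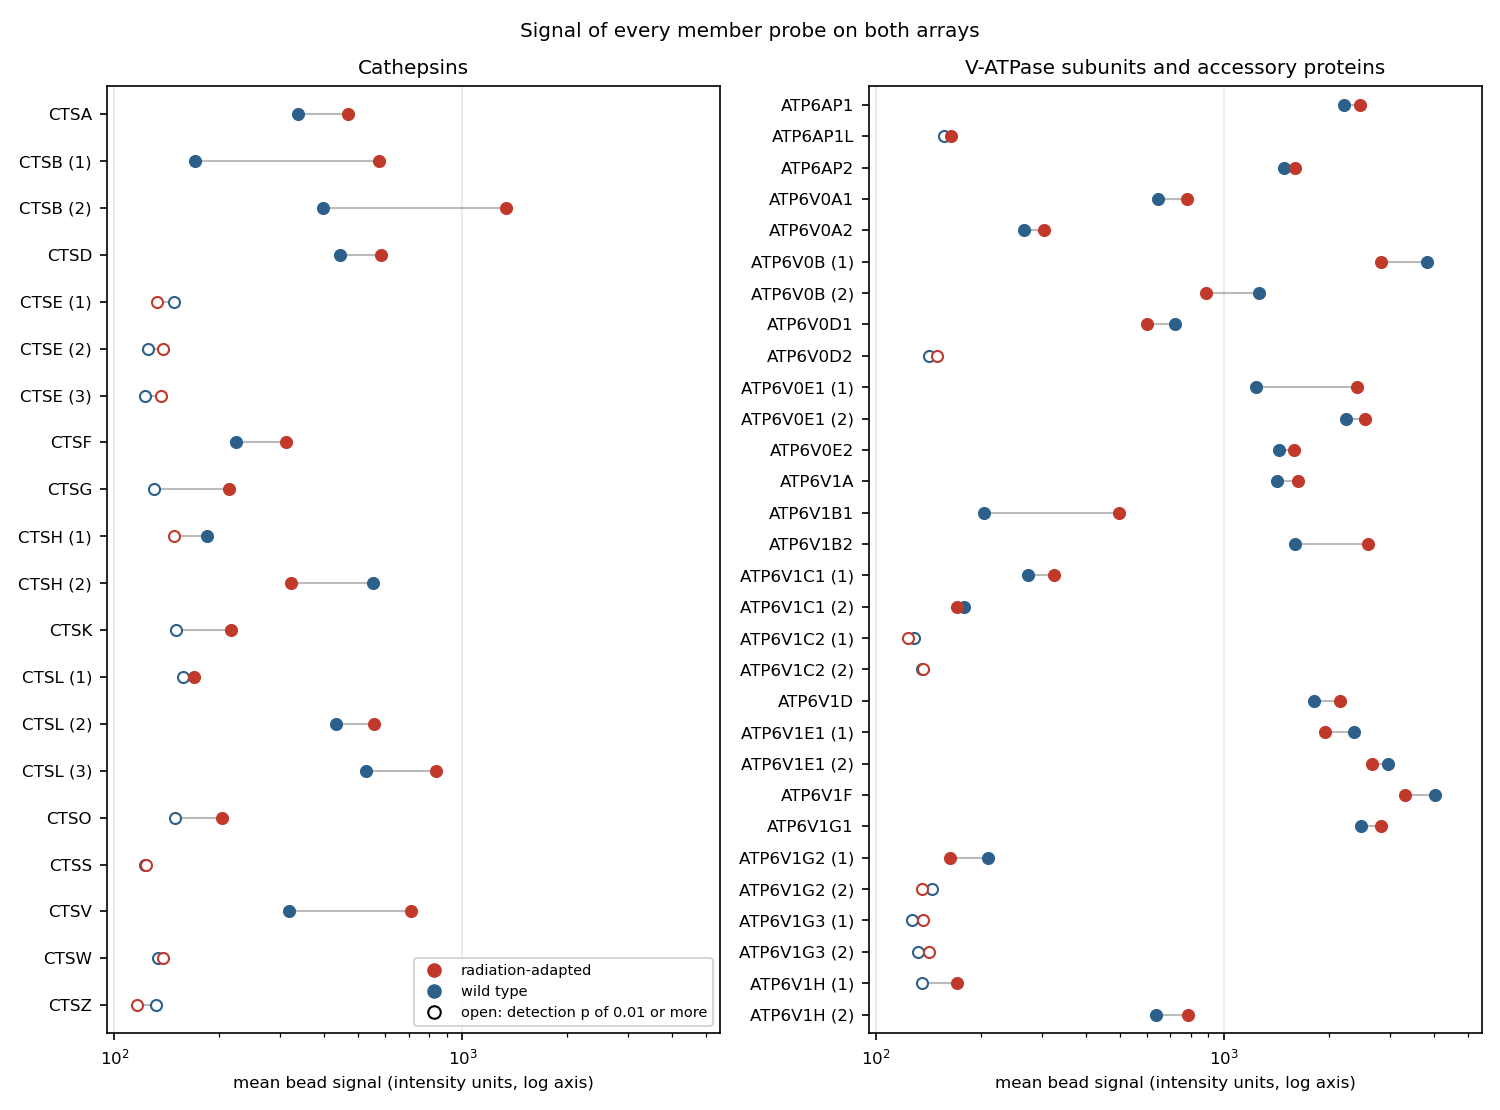
Mean bead signal (log axis, intensity units) of all 50 probes in radiation-adapted (red) and wild-type (blue) cells, with open points where the detection p-value was 0.01 or more and probes of 1 gene numbered. Both CTSB probes and the CTSV and ATP6V1B1 probes lie to the right in radiation-adapted cells, both CTSH probes lie to the left, and most V-ATPase pairs nearly touch.

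In the V1 sector, 10 of 12 genes were detected, with a median log2 ratio of 0.14. Of these, 1 was at least 2-fold higher, 1 at least 2-fold lower and 8 lay between. The share past 2-fold was 20%, near the 22.6% of all detected named genes. The B subunits, which complete the ATP-hydrolysing ring, stood highest. ATP6V1B1, the paralogue known from kidney intercalated cells and the inner ear, gave 497.1 in radiation-adapted cells and 203.4 in wild-type cells. It was 3.41-fold higher (log2 ratio 1.77, the 486th highest of 11352, or 1.09 without background correction), measured by 1 probe. Its chromosome 2 neighbours had a median of 0.24, with 5 of 20 at least 2-fold higher. ATP6V1B2, the paralogue made in most cells, gave 2582.9 in radiation-adapted cells and 1594.1 in wild-type cells, a 1.63-fold difference (log2 ratio 0.71). Its neighbours on chromosome 8 had a median of 0.82, above the ratio of ATP6V1B2 itself, and 9 of 20 were at least 2-fold higher. A shift shared by that stretch and a difference of ATP6V1B2 alone cannot be told apart here. ATP6V1A, the catalytic partner of the B subunits, gave 1628.2 in radiation-adapted cells and 1412.3 in wild-type cells (log2 ratio 0.13).

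The G subunits, which form the outer stalks with the E subunits, differed by paralogue. ATP6V1G1, made in most cells, gave 2823.3 in radiation-adapted cells and 2465.7 in wild-type cells (log2 ratio 0.22). ATP6V1G2, known mainly from neurons, gave 162.8 in radiation-adapted cells (detection p-value 0.0039) and 209.4 in wild-type cells. ATP6V1G2 was 2.41-fold lower (log2 ratio -1.27) at a probe that stood only just above background in the radiation-adapted cells, and its other probe, at 135.6 in radiation-adapted and 144.4 in wild-type cells, was not well above background in either. The ratio fell short of 2-fold without background correction (-0.48), with a larger offset and without scaling between the arrays. Its chromosome 6 neighbours had a median of -0.43. The third paralogue, ATP6V1G3, known from kidney, was not well above background at either probe.

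The promoters of ATP6V1B1 (chr2:70935650-70935949, plus strand) and ATP6V1G2 (chr6:31546559-31546858, minus strand, 1 of 2 annotated starts) are shown as those of the 2 V1 genes past 2-fold.
ATP6V1B1: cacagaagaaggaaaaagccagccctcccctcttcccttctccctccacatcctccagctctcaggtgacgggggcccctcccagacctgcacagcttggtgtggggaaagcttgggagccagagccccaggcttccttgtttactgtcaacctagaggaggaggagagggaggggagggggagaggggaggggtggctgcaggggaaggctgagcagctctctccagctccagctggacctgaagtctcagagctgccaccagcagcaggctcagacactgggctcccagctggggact
ATP6V1G2: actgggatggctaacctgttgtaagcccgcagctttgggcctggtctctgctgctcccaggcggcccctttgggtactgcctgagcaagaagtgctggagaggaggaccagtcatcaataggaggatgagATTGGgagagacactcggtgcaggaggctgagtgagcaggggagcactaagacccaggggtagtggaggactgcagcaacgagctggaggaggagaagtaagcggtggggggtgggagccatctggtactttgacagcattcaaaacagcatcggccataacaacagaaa
The ATP6V1B1 window held none of the motifs searched. The ATP6V1G2 window held 1 CCAAT box, read as ATTGG on the strand shown, and the window of its other annotated start held 1 GGGCGG box and 2 CCAAT boxes. No match says only that these letters are not in the window.

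The other V1 subunits had log2 ratios from -0.19 to 0.21 at their brightest probes. ATP6V1E1, of the outer stalk, had -0.13 and -0.32 at its 2 probes, and ATP6V1C1, which joins the stalks, had 0.06 and -0.53. ATP6V1D and ATP6V1F, parts of the rotor, had 0.21 and -0.19, and ATP6V1H, which regulates ATP hydrolysis, had 0.15. ATP6V1F gave 3310.2 in radiation-adapted cells and 4026.3 in wild-type cells, and ATP6V1D gave 2149.6 in radiation-adapted cells and 1804.9 in wild-type cells. ATP6V1C2, a tissue-restricted paralogue, was not well above background.

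In the V0 sector 6 of the 7 genes taken by symbol were detected and 0 passed 2-fold in either direction, with a median log2 ratio of 0.03. With 22.6% of all detected named genes past 2-fold, 6 genes are too few for this 0 to set the sector apart. TCIRG1, a V0 stator subunit gene outside the symbol rule, was detected in radiation-adapted cells only and is described below (at least 4.55-fold higher). ATP6V0B, a subunit of the proton-carrying ring, gave 2821.1 in radiation-adapted cells and 3817.4 in wild-type cells at its brighter probe. Its log2 ratios were -0.40 and -0.70, below 0 at both probes. ATP6V0D1, which links the ring to the V1 rotor, gave 601.1 in radiation-adapted cells and 721.0 in wild-type cells (log2 ratio -0.54). ATP6V0A1 and ATP6V0A2, the membrane stator subunits of neurons and of the Golgi and endosomes, had 0.13 and -0.01.

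ATP6V0E1, a small membrane subunit, was read differently by its 2 probes. One gave 2534.3 in radiation-adapted cells and 2244.0 in wild-type cells (log2 ratio 0.17), and the other gave 2406.5 in radiation-adapted cells and 1234.7 in wild-type cells (0.99). The gap of 0.81 between them exceeds the SD of 0.45 between probes, and 0.99 falls just short of 2-fold, so the difference at ATP6V0E1 depends on the probe. ATP6V0E2, its paralogue, had 0.06. ATP6V0D2, the osteoclast paralogue of ATP6V0D1, was not well above background. The accessory genes ATP6AP1 and ATP6AP2, whose products help assemble the pump, had 0.14 and 0.02 with signals from 1591.9 to 2447.1 in radiation-adapted cells and from 1479.7 to 2210.7 in wild-type cells. ATP6AP1L gave 163.5 in radiation-adapted cells, just detected, and 156.9 in wild-type cells, just not detected, and has no fold.

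**Figure D3:**
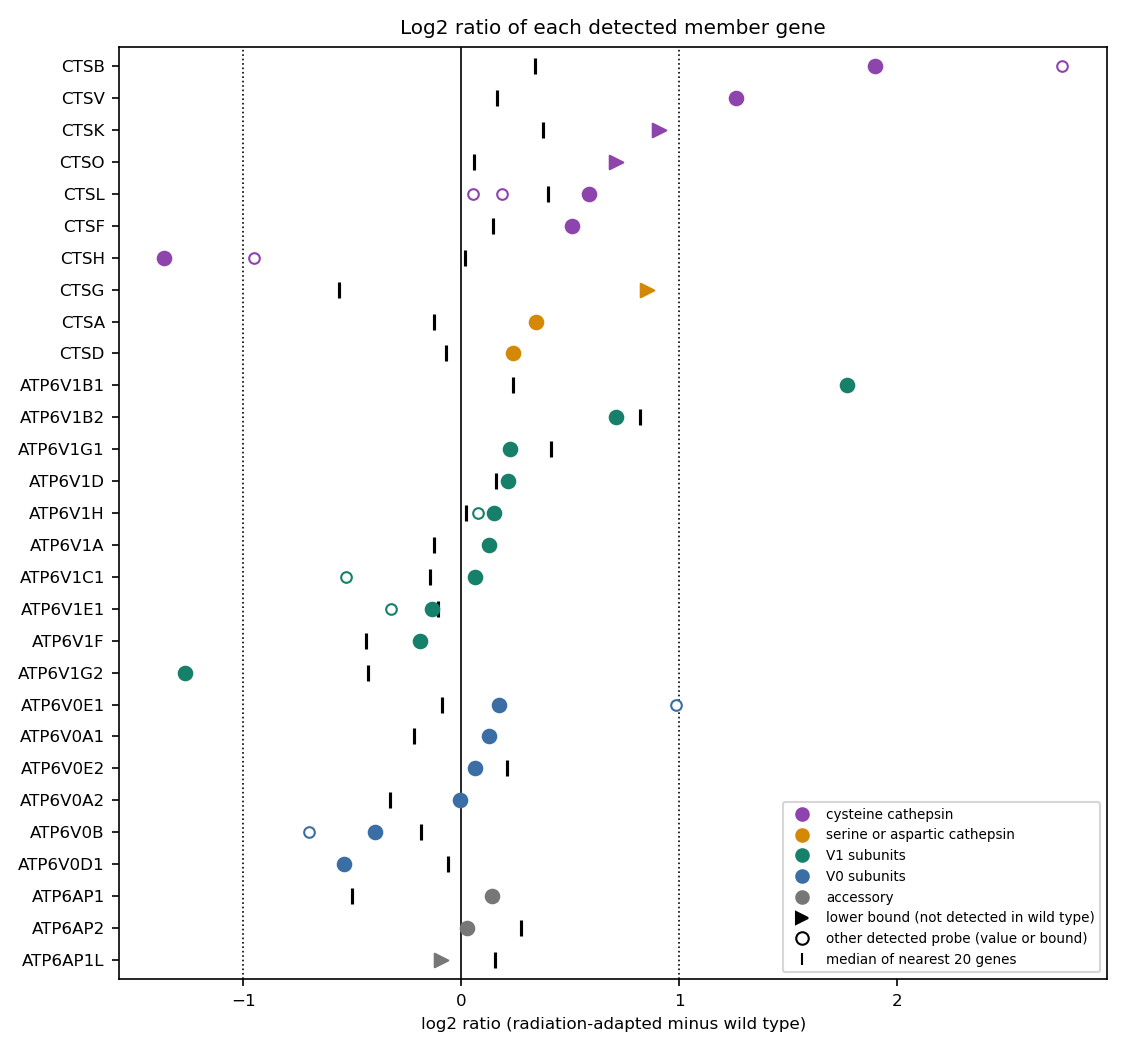
Log2 ratio, radiation-adapted over wild type (x axis), of the 29 detected genes by role, with open circles for other detected probes of a gene, triangles for lower bounds and black ticks for the median of the 20 nearest detected genes; dotted lines mark 2-fold. CTSB, CTSV and ATP6V1B1 lie right of the dotted line at 1, and CTSH and ATP6V1G2 lie left of the line at -1. All V0 and accessory genes drawn lie between, and the V0 gene TCIRG1, outside the symbol rule, is not drawn.

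The promoters were then searched for CACGTG, the core of the TFEB site, which reads the same on both strands. Of the 36 genes, 24 were in the promoter table. CACGTG stood in 7 of them (29.2%), in 3 of 9 cathepsins and 4 of 15 V-ATPase genes. The share was 13.1% over the 9102 detected genes in the table and 8.77% over all 27305. The 8-letter form TCACGTGA was found in CTSA, ATP6V0D1 and ATP6V1G1 (12.5%, against 2.41% of detected genes). The stretches around the sites, from RefSeq on GRCh38.p14 with CACGTG in capitals, are shown to set the sites beside the ratios.
CTSA, chr20:45891290-45891335, plus strand: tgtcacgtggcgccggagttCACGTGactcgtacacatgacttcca
CTSD, chr11:1763949-1763994, minus strand: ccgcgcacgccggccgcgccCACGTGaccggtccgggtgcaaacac
CTSF, chr11:66568632-66568677, minus strand: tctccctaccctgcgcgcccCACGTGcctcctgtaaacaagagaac
ATP6V0B, chr1:43974901-43974946, plus strand: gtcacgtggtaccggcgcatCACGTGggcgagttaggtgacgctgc
ATP6V0D1, chr16:67481191-67481236, minus strand: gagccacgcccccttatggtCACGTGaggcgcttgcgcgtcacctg
ATP6V0E2, chr7:149872876-149872921, plus strand: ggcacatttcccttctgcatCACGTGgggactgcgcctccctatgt
ATP6V1G1, chr9:114587691-114587736, plus strand: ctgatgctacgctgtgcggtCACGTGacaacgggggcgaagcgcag
CTSA, CTSF and ATP6V0B each held a further CACGTG upstream of the one shown. A gene was counted if the window of any of its annotated starts held the motif. At ATP6V0E2 the window of a further start (chr7:149873719-149874018) held none. The log2 ratios of these 7 genes ran from -0.54 (ATP6V0D1) to 0.51 (CTSF), so none was past 2-fold. The 4 genes past 2-fold that are in the table, CTSV, CTSH, ATP6V1B1 and ATP6V1G2, held no CACGTG in these windows. CTSB, also past 2-fold, was not in the table. With 13.1% of detected genes holding CACGTG and 22.6% past 2-fold, groups of 7 and 4 genes are too small for their lack of overlap to mean anything. Whether the motif and the ratios are related was not tested. A match is a string of letters and not a binding site. Of the genes of the TFEB family, TFE3 was detected (log2 ratio -0.28), and TFEB, TFEC and MITF were not well above background.

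Other genes of the lysosome were compared by lists written from general knowledge. Their shares past 2-fold stand beside 22.6% of all 11352 detected named genes. The share was 12.5% for assembly and partners, 28.6% for inhibitors, 19.4% for hydrolases, 5.88% for the membrane, 9.09% for sorting and 41.7% for the mTORC1 machinery. Of 8 detected genes for V-ATPase assembly and partners, 1 was at least 2-fold higher and 0 lower (median -0.05 over 6). That gene was TCIRG1, the a3 stator subunit of osteoclasts, which the symbol rule leaves out. It gave 359.5 in radiation-adapted cells and 132.4 in wild-type cells, where it was not well above background (detection p-value 0.39), and was at least 4.55-fold higher. TBC1D24 followed with a bound of 0.42, and OXR1 (-0.59) and WDR7 (-0.22) were lowest. TCIRG1 lies on chromosome 11 among neighbours with a median of 0.24.

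Of 7 detected protease inhibitor genes, 1 was higher and 1 lower (median 0.37 over 4, or -0.05 with the other 3 at their bound). SERPINH1, which encodes a collagen chaperone rather than a working inhibitor, was 2.02-fold higher, SERPINB8 had 0.80, SERPINB1 was at least 2.31-fold lower and CSTB had -0.27. CST3, the main secreted inhibitor of cysteine cathepsins, had -0.05, and CSTB is its cytosolic relative.

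Of 31 detected genes on the lysosomal hydrolase list, which leaves out the cathepsins above, 1 was at least 2-fold higher and 5 lower. The list also held NPC2, PSAP and GM2A, whose products are not themselves hydrolases. Of the 26 listed genes detected on both arrays, 19 lay below 0, beside 4735 of all 9188 such named genes. The median of the list was -0.29. SMPD1, the acid sphingomyelinase gene, was at least 19.5-fold higher, with a signal of 1105.8 in radiation-adapted cells and 154.5 in wild-type cells and a bound of 3.22 at its other probe. NPC2, which moves cholesterol out of lysosomes, had 0.74. GALC was at least 2.95-fold lower and the acid nuclease gene DNASE2 2.18-fold lower, beside GLB1, LIPA and GUSB. CTSC, a cathepsin outside the symbol rule, had -0.18. Of 17 lysosomal membrane genes, 0 were higher and 1 lower (median -0.26), from TMEM192 (-1.20) and OSTM1 (-0.77) to TPCN2 (0.61) and the cystine exporter gene CTNS (0.96).

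Of 11 detected sorting genes, 1 was higher and 0 lower (median 0.20). M6PR, the cation-dependent mannose 6-phosphate receptor that carries hydrolases to lysosomes, gave 1604.7 in radiation-adapted cells and 422.1 in wild-type cells and was 4.21-fold higher, with neighbours on chromosome 12 at a median of 0.43. GGA2, a sorting adaptor gene, had 0.81, and AP1S1 (-0.86) and GNPTAB (-0.37) were lowest. Of 12 genes of the mTORC1 machinery on lysosomes, which the V-ATPase contacts, 3 were higher and 2 lower (median 0.39). The Rag GTPase genes RRAGB (3.26-fold) and RRAGD (2.24-fold) and FNIP2 (2.01-fold, 0.15 at its other probe) were higher, and the Ragulator genes LAMTOR4 (2.46-fold) and LAMTOR2 (2.21-fold, -1.33 at its other probe) were lower.

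**Figure D4:**
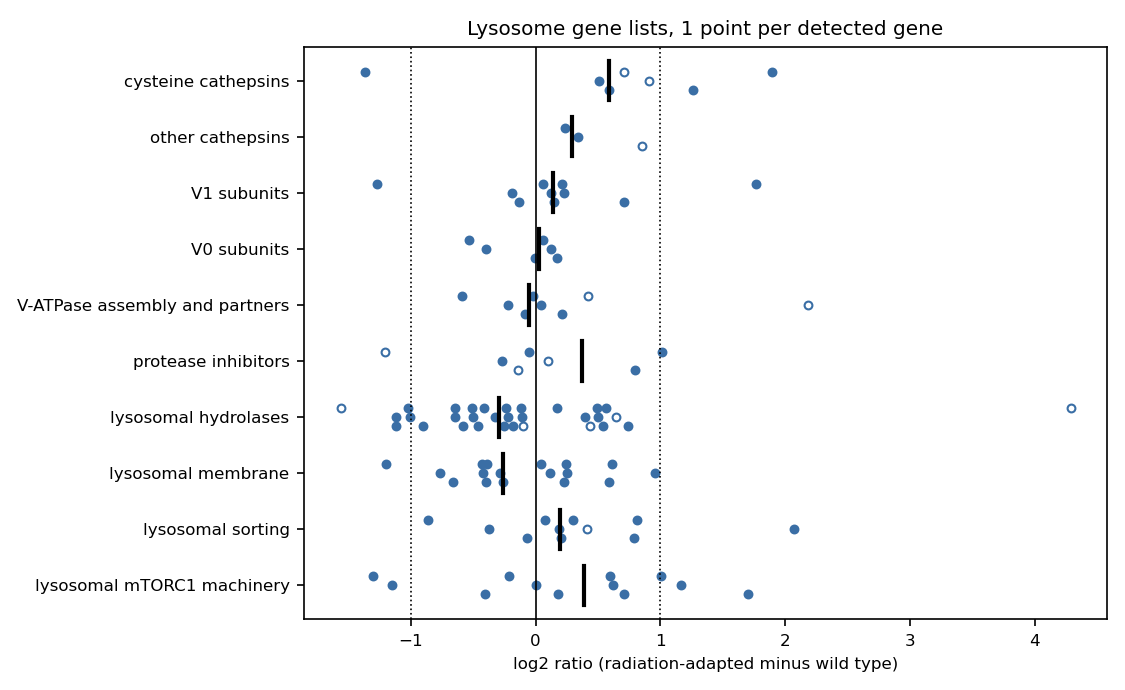
Log2 ratio, radiation-adapted over wild type (x axis), of each detected gene by list, with filled points for genes detected on both arrays, open points for bounds and a black bar for the median of the filled points; dotted lines mark 2-fold. The median of the cysteine cathepsins is 0.59, that of the V0 subunits taken by symbol 0.03 and that of the hydrolase list -0.29. Single genes such as SMPD1, TCIRG1 and M6PR lie past 2 on this axis.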

How the data were processed

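Per the labels' protocols, RNA was isolated with Trizol and turned into biotinylated cRNA with an Illumina amplification kit. The deposited raw table holds, per the file headers, a mean bead signal (a linear intensity) and a detection p-value for every probe on each array. Its values show no background subtraction and no scaling between arrays. The authors also deposited a processed table of linear intensities that reach below 0 and have the same distribution on both arrays, to within 0.2 units. No header or label names the software behind both tables. Each processed column matched its own array in rank order (Spearman's rho above 0.99).

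Log2 values were computed with neqc in limma 3.58.1 (R 4.3.3), which fits the background from the detection p-values, adds 16 units and quantile-normalizes the arrays. The added units shrink the ratios of dim probes. Each gene took the detected probe (detection p-value under 0.01) with the highest mean. A probe detected on 1 array gave a bound against the dimmest detected level of the other (log2 5.36 on the radiation-adapted and 5.60 on the wild-type array). Where the bound lay on the wrong side of 0, no fold is given. With 1 array per group, genes were counted at 2-fold and no test was made. The number of arrays limits the precision. The steps were tested on simulated data, with ratios planted in brighter probes only. How well ratios are recovered at dim probes, such as those of ATP6V1B1 and ATP6V1G2 in wild-type cells, was not tested. Every gene of both families is accounted for, those past 2-fold in full. Of each other list the 2 highest and the 2 lowest genes are named, with others named where a count was small. The genes and lists were chosen with earlier results of these data known, and the promoter motifs other than CACGTG and TCACGTGA were added after the values were seen. Names come from the platform annotation, and RefSeq (GRCh38.p14) gave gene order and promoters. The files name no genome build, so coordinates are given for the printed RefSeq sequences only. The alternatives tried were the background correction, the scaling, the offset, the detection rule, the probe rule, the fold and the authors' table.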

Additional observations from a re-analysis of the deposited data

How the results depend on the processing

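With 1 array per group no array could be left out. No paired analysis was possible because each group has 1 sample. Of 257 values of the 29 detected genes under 9 alternatives, 251 stayed within 0.45 log2 units of the main value, 6 moved further and 0 of the called genes changed sign. Of the 45 values of the 5 called genes, 40 stayed past 2-fold on the same side. Many of these values could not change. A gene with 1 probe, detected on both arrays, keeps its value under every other detection rule and under the mean of probes, as CTSV and ATP6V1B1 did. These counts therefore overstate how steady the ratios are. Without background correction, where 10.97% of all genes passed 2-fold in place of 22.6%, 2 genes of both families together did in place of 5, 1 cathepsin (CTSB) in place of 3 and 1 V-ATPase gene (ATP6V1B1, log2 ratio 1.09) in place of 2, and the cathepsin median was 0.30 in place of 0.65 (with CTSK, CTSO and CTSG at their bound). ATP6V1G2 was then at -0.48, and it also fell short of 2-fold with an offset of 50 and without scaling between arrays, where the count of V-ATPase genes was 1 in each case (16.9% and 25.5% of all genes). The cathepsin count was 5 in the authors' processed table (27.3% of all genes) and with median scaling (24.6%, median 0.87), 6 without scaling between arrays (25.5%, median 0.94), 6 with detection p-values under 0.05 (8 genes over both families, 22.2%) and 6 without a detection filter (8 genes over both families, 15.8%, median 0.43), and 7 at 1.5-fold (10 over both families, 44.0%). Median scaling and no scaling moved the median of all genes to 0.16 and 0.23, and 67.0% and 71.7% of all genes past 2-fold were then higher, against 54.6%. The V-ATPase median stayed between 0.06 and 0.18 under these alternatives. CTSK, CTSO, CTSG and ATP6AP1L were detected on 1 array only and have a bound or no fold. At 2-fold, every cathepsin count above 3 came from CTSK, CTSG or CTSO, which passed the main detection rule only through the array where they are higher. They are also in the cathepsin medians above. Over genes detected on both arrays, the cathepsin count was 3 and the median 0.51, with 21.3% of all genes past 2-fold.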
